A study of Rattus norvegicus with 32 samples.

Results

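The vascular endothelial growth factor (VEGF) ligands, their receptors and the neuropilins were followed in liver sinusoidal endothelial cells (LSECs), the fenestrated cells that line the capillaries of the liver. Members were chosen by gene symbol, and all 9 were found among the 32623 genes of the deposited tables. They are 4 ligands (Vegfa, ENSRNOG00000019598; Vegfb, ENSRNOG00000021156; Vegfc, ENSRNOG00000011416; Pgf, ENSRNOG00000005650), 3 receptor tyrosine kinases (Kdr, ENSRNOG00000046829, Flt1, ENSRNOG00000000940 and Flt4, ENSRNOG00000002511) and 2 neuropilins (Nrp1, ENSRNOG00000010744 and Nrp2, ENSRNOG00000031232). All 9 passed the filter on low counts in every comparison.

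In this family a secreted ligand binds a pair of receptor molecules on the endothelial cell and switches on their kinase activity. VEGF-A binds both Kdr (VEGFR2), the receptor that carries most of the growth, survival and permeability signal, and Flt1 (VEGFR1), which binds tightly but signals weakly and so acts largely as a trap. VEGF-B and placental growth factor (encoded by Pgf) bind Flt1, whereas VEGF-C and VEGF-D act mainly through Flt4 (VEGFR3), the receptor of lymphatic vessels that LSECs also carry. Neuropilins are co-receptors without kinase activity that also serve class 3 semaphorins. In the normal liver, hepatocytes are a main source of VEGF-A, and VEGF signalling helps LSECs to keep their fenestrae.

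The data are RNA sequencing libraries of 32 LSEC preparations. In the CCl4 model, male Wistar Han rats inhaled carbon tetrachloride (CCl4), a hepatotoxin, for 2 weeks (acute injury, n = 5), 6 weeks (fibrosis, n = 5) or 12 to 14 weeks (cirrhosis, n = 6). Healthy rats were the controls (n = 6). The labels of the cirrhotic libraries give only CCl4 treatment, and their duration was taken from the description of the study. Drinking water in the CCl4 model contained phenobarbital, which induces the enzymes that activate CCl4, and whether the healthy rats received it was not stated. The thioacetamide (TAA, another hepatotoxin) experiment has 5 libraries labelled control and 5 labelled TAA control. The description of that experiment names healthy and TAA-cirrhotic rats, with TAA injected intraperitoneally and saline as the control, while the labels do not settle which group received TAA. Its comparison is therefore given as TAA control minus control, without a disease direction. The labels give Wistar Han as the strain of all libraries, and the description gives Sprague-Dawley for the TAA experiment. In the CCl4 and TAA models the study isolated LSECs at least 5 days after the last dose of the toxin, to lessen the acute inflammatory response. Ages were not given in the sources used here, nor whether the cells were kept in culture before their RNA was extracted. The study's figure legends give 5 to 6 independent isolations of LSECs for each model or stage. The labels do not say that each library is a separate animal, so the tests rest on the spread between these libraries. No sequencing batch was named, so the stage and a batch that coincides with it cannot be told apart.

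Totals per library ranged from 25646531 to 46464289 counts, and the member with the fewest counts was Pgf, with 4 to 9 counts per library in the group labelled TAA control. Levels are given as CPM (counts scaled to a common library size) scaled with TMM factors, over the 22 CCl4 libraries together and over the 10 TAA libraries apart. A CPM level depends on transcript length, so levels were compared between groups and never between genes. A gene was called when limma-voom gave a Benjamini-Hochberg adjusted p under 0.05 over all genes tested and a fold-change above 1.5. The choice of scaling mattered for comparisons with healthy LSECs. With library size alone in place of TMM, the median log2 fold change of all genes moved from -0.09 to 0.32 in acute injury, from -0.03 to 0.37 in fibrosis and from 0.07 to 0.42 in cirrhosis. The share of higher genes among all genes called moved with it from 48.4% to 58.2%, from 50.3% to 60.9% and from 52.2% to 71.3%.

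The labelled cell type was checked against marker genes, whose summed levels differed widely between groups. Markers common to endothelial cells (8 of 10 found) summed to 10221 to 18732 CPM in healthy, 2858 to 4136 CPM in acute, 2324 to 2864 CPM in fibrotic and 6306 to 7965 CPM in cirrhotic LSECs. LSEC markers (9 of 10 found) ranged from 12646 to 22388 CPM in healthy, 2041 to 2482 CPM in acute, 1395 to 2286 CPM in fibrotic and 11824 to 15003 CPM in cirrhotic LSECs. In acute LSECs 6 of 8 endothelial and 7 of 9 LSEC markers were lower, and Cldn5, a tight junction gene, was at 0 in all 5 libraries. In fibrosis 6 of 8 and 8 of 9 were lower. Markers of other vascular endothelium, such as Vwf and Cd34, ranged from 1439 to 4440.5 CPM in healthy, 27.5 to 51.3 CPM in acute, 39.4 to 74.9 CPM in fibrotic and 1789 to 4098 CPM in cirrhotic LSECs. Kupffer cell and macrophage markers ranged from 374 to 4060 CPM in healthy, 84.7 to 249 CPM in acute, 37.3 to 234 CPM in fibrotic and 910.5 to 3230 CPM in cirrhotic LSECs. Hepatocyte markers reached their highest sum in healthy LSECs (1434 to 31430.2 CPM), where replicates 3 and 5 stood apart at 3941 and 1434 CPM from the other 4 libraries at 16871 CPM or more. They summed to 159 to 985 CPM in acute, 1477 to 5868 CPM in fibrotic and 3484 to 16178 CPM in cirrhotic LSECs. Stellate cell and fibroblast markers ranged from 166 to 605 CPM in healthy, 9.07 to 31.8 CPM in acute, 38.3 to 176 CPM in fibrotic and 489 to 1703 CPM in cirrhotic LSECs. Genes of the immediate-early response, such as Fos and Egr1, which are also induced when tissue is dissociated, summed to 27684 to 57154 CPM in healthy, 836 to 2190.3 CPM in acute, 1757 to 2786 CPM in fibrotic and 15965 to 34974 CPM in cirrhotic LSECs. Lymphatic markers summed to 139 to 229 CPM in healthy LSECs and to 853 to 2729 CPM in the 3 diseased groups, but not all of them rose. Of 4 tested, 1 was higher and 2 lower in acute injury, and 2 and 2 in fibrosis. In cirrhosis 4 of 5 were higher and 0 lower. Of all genes 35.5% were higher and 37.9% lower in acute injury, 35.3% and 34.9% in fibrosis, and 27.1% and 24.7% in cirrhosis. The part of these differences in the results on the VEGF family was not tested beyond the comparison with endothelial markers given later. In a bulk sample, fewer cells of a type and less RNA per cell cannot be told apart.

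**Figure D1:**
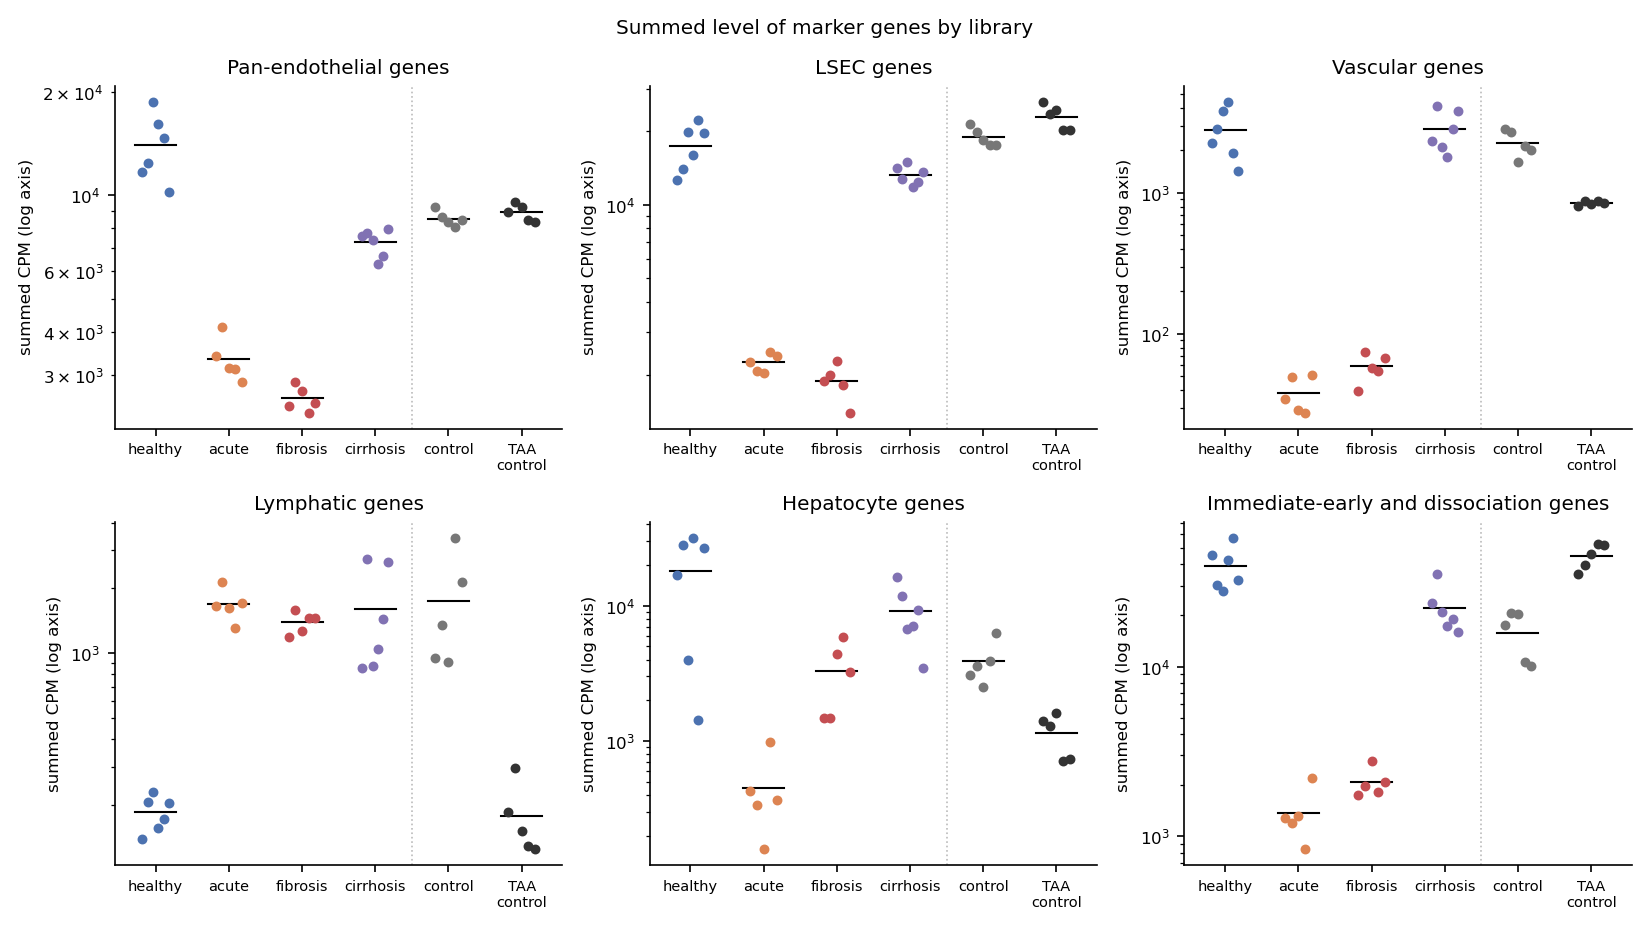
Summed CPM (log axis) of 6 lists of cell type or state markers in each library (points), by group, with bars at the group mean and a dotted line before the separately scaled TAA experiment. Endothelial and LSEC markers in acute and fibrotic libraries lie below every healthy library, and the immediate-early genes do so too, with at most 2786 CPM against at least 27684 CPM in healthy libraries.

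Promoter windows are shown for the 3 receptors, which fell together in acute injury and fibrosis, and for the 3 ligands that rose in at least 1 stage. Each is the 250 bases before the annotated start in RefSeq's GRCr8 assembly of the rat genome, a different assembly from the Rnor_6.0 genome to which the reads were mapped. All 9 members matched, with 10 windows. Capitals mark matches to the GC box GGGCGG on either strand, to TGACGTCA (the cyclic AMP response element) and to TATAAA. The windows are Kdr at chr14:32571813-32572062 (plus strand), Flt1 at chr12:12333180-12333429 (plus), Flt4 at chr10:34414584-34414833 (plus), the first of the windows of Vegfa at chr9:22452604-22452853 (plus), Pgf at chr6:110557748-110557997 (minus) and Vegfc at chr16:44560888-44561137 (minus).
Kdr: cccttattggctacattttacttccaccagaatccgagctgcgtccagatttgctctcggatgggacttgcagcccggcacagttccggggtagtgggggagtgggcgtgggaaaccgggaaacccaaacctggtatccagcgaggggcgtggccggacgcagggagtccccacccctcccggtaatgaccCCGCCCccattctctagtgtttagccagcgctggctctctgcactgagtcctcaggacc
Flt1: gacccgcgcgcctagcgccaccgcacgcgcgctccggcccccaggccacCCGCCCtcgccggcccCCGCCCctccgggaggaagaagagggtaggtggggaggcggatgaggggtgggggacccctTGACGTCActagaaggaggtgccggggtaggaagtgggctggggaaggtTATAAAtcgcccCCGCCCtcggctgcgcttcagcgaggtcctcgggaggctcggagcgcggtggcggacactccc
Flt4: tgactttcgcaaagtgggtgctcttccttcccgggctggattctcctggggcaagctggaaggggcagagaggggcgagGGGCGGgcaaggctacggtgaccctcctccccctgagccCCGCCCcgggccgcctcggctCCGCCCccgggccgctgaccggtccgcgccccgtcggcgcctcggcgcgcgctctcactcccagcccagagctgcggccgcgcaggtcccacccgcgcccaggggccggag
Vegfa: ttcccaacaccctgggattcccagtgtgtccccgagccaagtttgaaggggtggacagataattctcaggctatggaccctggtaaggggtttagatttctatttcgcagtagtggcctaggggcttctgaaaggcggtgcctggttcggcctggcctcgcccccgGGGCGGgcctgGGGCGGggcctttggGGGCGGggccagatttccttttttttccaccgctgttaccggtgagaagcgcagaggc
Pgf: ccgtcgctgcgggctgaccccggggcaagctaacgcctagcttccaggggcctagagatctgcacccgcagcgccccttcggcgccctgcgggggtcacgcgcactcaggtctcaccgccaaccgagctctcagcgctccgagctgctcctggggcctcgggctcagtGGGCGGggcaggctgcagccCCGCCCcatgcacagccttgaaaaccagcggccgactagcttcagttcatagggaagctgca
Vegfc: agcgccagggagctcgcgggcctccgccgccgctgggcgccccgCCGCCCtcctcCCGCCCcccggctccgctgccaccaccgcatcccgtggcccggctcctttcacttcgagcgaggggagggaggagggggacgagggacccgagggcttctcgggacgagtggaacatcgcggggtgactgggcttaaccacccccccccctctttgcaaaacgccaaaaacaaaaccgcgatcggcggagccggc

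All 6 windows were rich in G and C, from 60.4% in Vegfa and 61.6% in Kdr to 73.2% in Flt1 and 76% in Flt4, where the median of 33469 rat windows of the same length was 51.2%. They held 12 to 29 CpG sites, against a median of 5. The GC box, held by 30.5% of all windows, was present in each of them. It occurred 1 time in Kdr, 2 times in Pgf and Vegfc and 3 times in Vegfa, Flt1 and Flt4. Among the member windows not shown, that of Vegfb held 4 GC boxes (73.2% G and C). The second window of Vegfa (56%) and those of Nrp1 (66.4%) and Nrp2 (52.8%) held 0. Flt1 alone of the 10 member windows held TGACGTCA (1.59% of all windows) and TATAAA (12.9%). The core of the hypoxia response element, ACGTG, was found in 16.6% of all windows and in 0 of the 10 member windows, as was the AP-1 motif TGANTCA, found in 6.34% of all windows. The ETS motif CGGAAG, present in 13.9% of all windows, was found once, in Nrp1. These matches describe letters in a short window and say nothing of which factor binds there.

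All 3 VEGF receptor kinases were 6.02-fold to 15.6-fold lower in acute LSECs and 9.38-fold to 12.1-fold lower in fibrotic LSECs than in healthy ones, and in cirrhosis Kdr stood near its healthy level while Flt4 was still lower. Kdr, the main signalling receptor, was at 2014 CPM in the lowest, 2959.5 CPM in the median and 5609.6 CPM in the highest healthy library. In acute LSECs its level was 177, 176, 219, 134 and 476 CPM in replicates 1, 2, 3, 4 and 8. In fibrotic LSECs it was 274, 347, 263, 283 and 199 CPM in replicates 12, 13, 15, 16 and 17. Every acute and fibrotic library lay below every healthy one, with acute replicate 8 the nearest, and healthy replicates 5 and 6 stood apart on the high side. The log2 fold change was -3.96 (SE 0.345, adjusted p = 6.63e-07) in acute injury and -3.59 (SE 0.259, adjusted p = 1.75e-07) in fibrosis by limma-voom. Cirrhotic LSECs had 2648 CPM in the lowest, 2965 CPM in the median and 3619 CPM in the highest library, all within the healthy range. Their log2 difference of -0.17 (95% interval -0.66 to 0.31, adjusted p = 0.53) leaves room for a change of either sign, and it turned to 0.17 with library size alone.

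Flt1, the receptor that binds VEGF-A, VEGF-B and placental growth factor, ranged from 989.5 to 2005 CPM in healthy LSECs with a median of 1578 CPM. It was at 157, 167, 135, 87.9 and 248 CPM in the acute libraries and at 151, 206, 163, 149 and 107 CPM in the fibrotic ones. Both injured groups lay below the lowest healthy library and overlapped each other. The log2 fold change was -3.27 (SE 0.256, adjusted p = 2.65e-07) in acute injury and -3.23 (SE 0.203, adjusted p = 5.92e-08) in fibrosis. In cirrhosis Flt1 spanned 889 to 1228 CPM with a median of 1023 CPM, which overlaps the healthy range. Its log2 difference of -0.52 (SE 0.173, adjusted p = 0.0202) was 1.43-fold and did not pass the fold-change threshold.

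Flt4, the receptor for VEGF-C and VEGF-D, was at 867 to 1326 CPM in healthy LSECs (median 1102 CPM). Acute libraries had 198, 220.2, 170.2, 151 and 148 CPM, and fibrotic libraries 100, 120.2, 124, 94.2 and 88.4 CPM. The 3 groups did not overlap with each other, fibrosis being the lowest. The log2 fold change against healthy LSECs was -2.59 (SE 0.159, adjusted p = 3.66e-08) in acute injury and -3.30 (SE 0.149, adjusted p = 6.2e-09) in fibrosis. Cirrhotic LSECs had 481 to 743 CPM (median 628 CPM), between the injured and the healthy groups and without overlap with either. They were 1.73-fold lower than healthy LSECs (log2 fold change -0.79, SE 0.153, adjusted p = 0.00104), a call that ended with library size alone, where the log2 difference was -0.45.

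**Figure D2:**
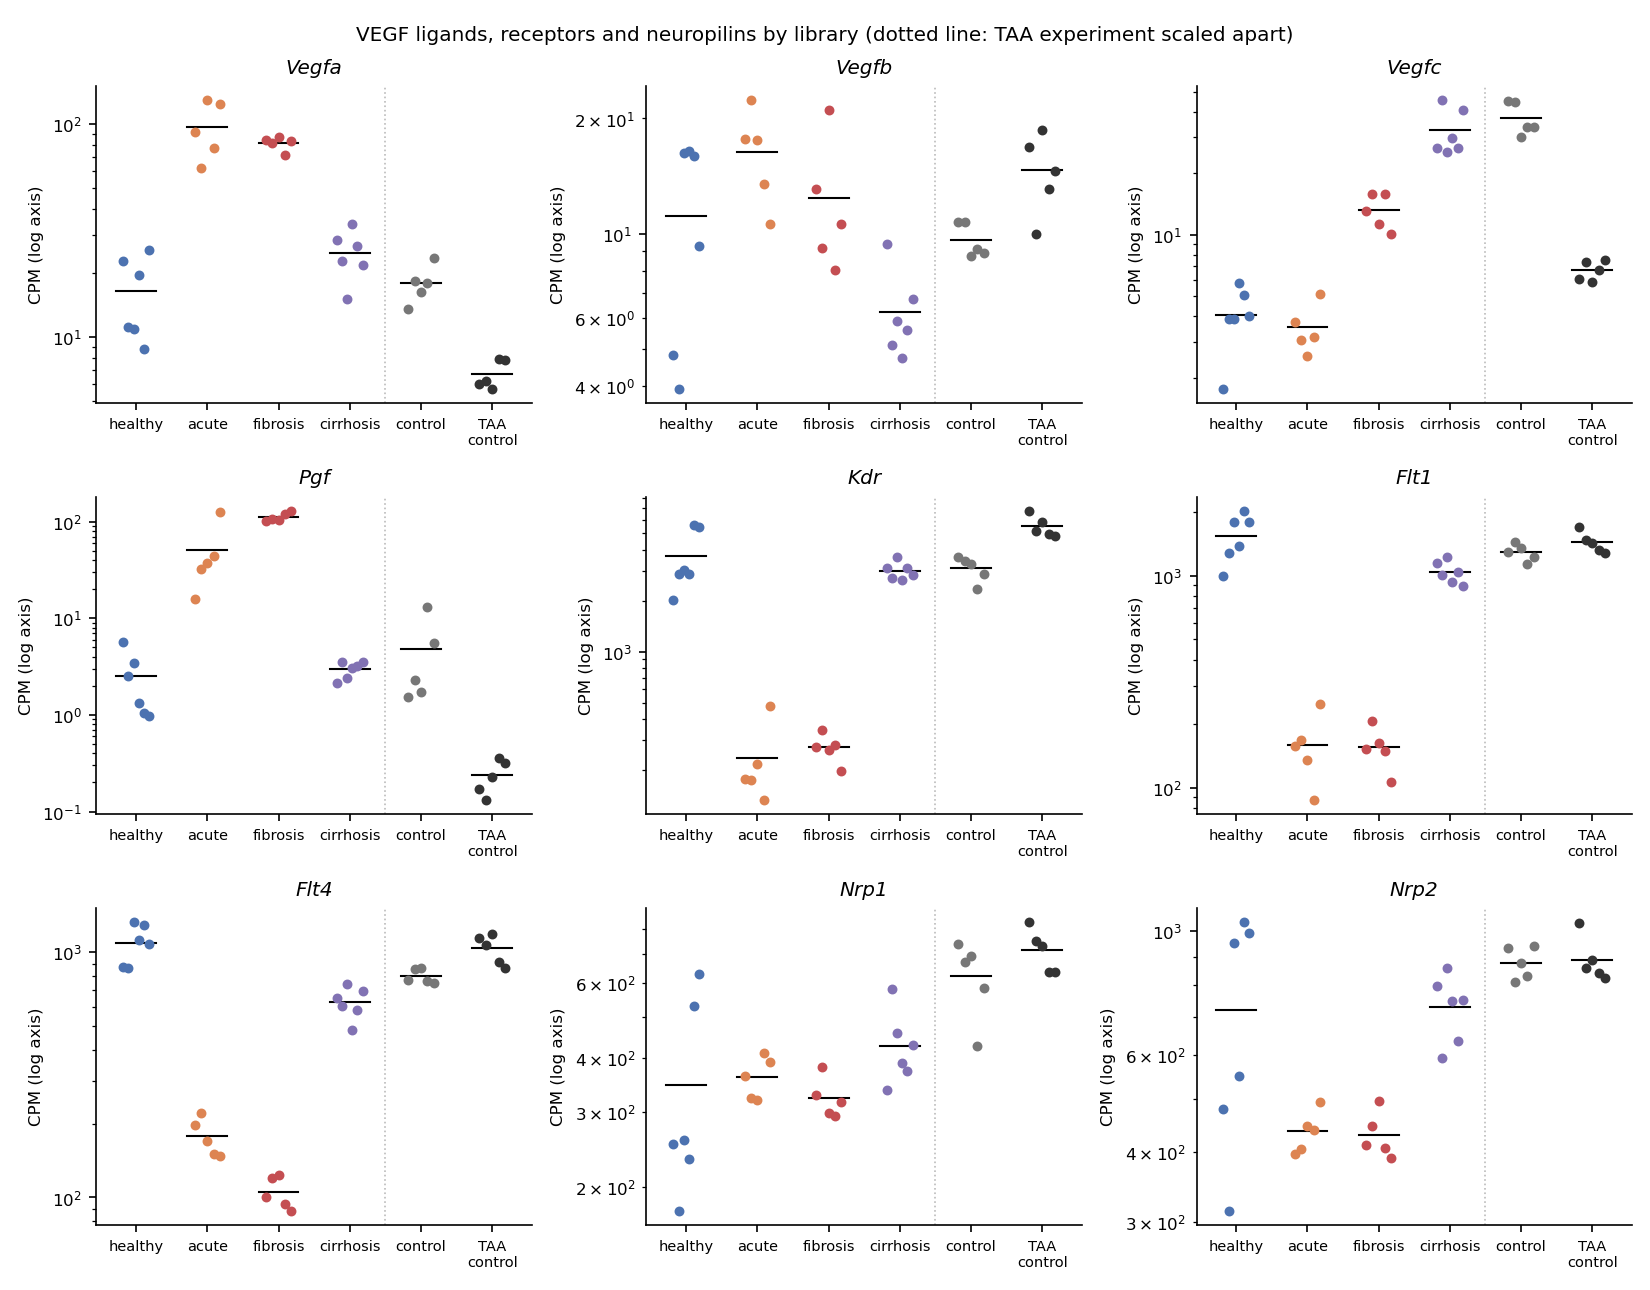
CPM (log axis) of each of the 9 members in each library (points), with bars at the arithmetic mean of a group. The dotted line separates the TAA experiment, whose libraries were scaled apart. Kdr, Flt1 and Flt4 dip in the acute and fibrotic groups, Vegfa and Pgf rise there, and Vegfc rises in fibrosis and further in cirrhosis.

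The ligands moved at different stages. Vegfa and Pgf were high in acute and fibrotic LSECs, Vegfc was high in fibrosis and highest in cirrhosis, and Vegfb was called in no comparison with healthy LSECs. Vegfa, the central ligand of the family, was at 8.79 to 25.5 CPM in healthy LSECs with a median of 15.3 CPM. The acute libraries held 91.5, 62.0, 129.0, 76.8 and 124 CPM, and the fibrotic ones 83.7, 81.0, 87.3, 71.4 and 83.1 CPM. Every acute and fibrotic library was above every healthy one, and the acute group was the more variable (SD 29.2 against 5.95 CPM). Vegfa was 6.22-fold higher in acute injury (log2 fold change 2.64, SE 0.317, adjusted p = 1.03e-05) and 5.55-fold higher in fibrosis (2.47, SE 0.268, adjusted p = 5.01e-06). Cirrhotic LSECs had 15.1 to 34.1 CPM (median 24.8 CPM), which overlaps the healthy range. Their log2 difference of 0.67 (95% interval 0.06 to 1.28) had an adjusted p of 0.0581 by limma-voom and was not called. It was called in 10 of 26 alternatives, among them the unadjusted p that the study's methods name.

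Pgf encodes placental growth factor, which acts through Flt1. Healthy LSECs had 0.982 to 5.69 CPM with a median of 1.93 CPM. The acute libraries ranged widely, at 16, 32.6, 37.6, 43.9 and 125 CPM, the last being replicate 8. Fibrotic libraries were at 101.1, 107, 104, 120.5 and 128 CPM. Neither group overlapped with healthy LSECs, and acute replicate 8 lay inside the fibrotic range. Pgf was 20.5-fold higher in acute injury (log2 fold change 4.36, SE 0.63, adjusted p = 4.69e-05) and 58.3-fold higher in fibrosis (5.87, SE 0.355, adjusted p = 4.27e-08), the largest log2 fold change among the 9 members in both comparisons. Cirrhotic LSECs were back at 2.16 to 3.55 CPM (log2 difference 0.59, 95% interval -0.26 to 1.44, adjusted p = 0.216).

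Vegfc encodes VEGF-C, the ligand of Flt4 and the main growth factor of lymphatic vessels. It was at 1.77 to 5.83 CPM in healthy LSECs (median 3.95 CPM) and at 3.76, 3.05, 2.56, 3.15 and 5.11 CPM in acute LSECs, within that range. Their log2 difference was -0.14 (95% interval -0.78 to 0.51, adjusted p = 0.687), and its sign turned with library size alone (0.29). Fibrotic libraries held 13.1, 15.8, 11.3, 15.8 and 10.1 CPM, and cirrhotic ones 25.4 to 45.4 CPM with a median of 28.3 CPM. The healthy, fibrotic and cirrhotic groups did not overlap with each other. Vegfc was 3.56-fold higher in fibrosis (log2 fold change 1.83, SE 0.258, adjusted p = 4.44e-05) and 8.31-fold higher in cirrhosis (3.05, SE 0.265, adjusted p = 2.69e-05). In cirrhosis 4 of 5 lymphatic markers and 8 of 9 stellate cell and fibroblast markers were also higher, with stellate markers at 489 to 1703 CPM against 166 to 605 CPM in healthy LSECs, and their part in the level of Vegfc was not tested.

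Vegfb, a ligand of Flt1 known for its role in fatty acid uptake, was at 11.1 ± 5.88 CPM in healthy (SD, n = 6), 16.3 ± 4.48 CPM in acute (SD, n = 5), 12.4 ± 5.20 CPM in fibrotic (SD, n = 5) and 6.24 ± 1.68 CPM in cirrhotic LSECs (SD, n = 6). All 3 diseased groups overlapped with the healthy libraries, which themselves ranged from 3.93 to 16.4 CPM. The log2 difference was 0.78 in acute injury (95% interval -0.02 to 1.59, called in 8 of 25 alternatives), 0.36 in fibrosis (-0.52 to 1.24) and -0.63 in cirrhosis (-1.41 to 0.15).

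The neuropilins did not pass the threshold in any comparison with healthy LSECs. Nrp1, a co-receptor of VEGF-A and of semaphorin 3A, was at 346 ± 185 CPM in healthy (SD, n = 6), 362 ± 40.3 CPM in acute (SD, n = 5), 324 ± 35.4 CPM in fibrotic (SD, n = 5) and 428 ± 86.2 CPM in cirrhotic LSECs (SD, n = 6). The healthy libraries fell apart, with replicates 5 and 6 at 529 and 629 CPM and the other 4 between 177 and 257 CPM, so that every diseased library lay within the healthy range. The log2 differences were 0.25 in acute injury (95% interval -0.4 to 0.91), 0.12 in fibrosis (-0.53 to 0.78) and 0.45 in cirrhosis (-0.15 to 1.06). Without these 2 healthy libraries, an alternative added after the data were seen, Nrp1 was called higher in all 3 comparisons, with log2 fold changes of 0.80, 0.59 and 0.87. Against healthy replicates 3 and 5 alone, also added then, Nrp1 was called in none of them (0.14, -0.12 and 0.21). Nrp2, which serves VEGF-C and semaphorin 3F, was at 721 ± 311 CPM in healthy (SD, n = 6), 436 ± 37.8 CPM in acute (SD, n = 5), 430.3 ± 41.2 CPM in fibrotic (SD, n = 5) and 730.1 ± 101 CPM in cirrhotic LSECs (SD, n = 6). Its healthy libraries ranged from 314 to 1038 CPM and enclosed all others. The log2 differences were -0.56 (95% interval -1.19 to 0.06), -0.55 (-1.18 to 0.07) and 0.15 (-0.43 to 0.73). Nrp2 was called lower in acute injury and fibrosis with edgeR (-0.68 and -0.67), DESeq2 (-0.62 and -0.64), 1 fit over the CCl4 groups (-0.60 and -0.62) and without healthy replicate 2 (-0.79 and -0.77). Against healthy replicates 3 and 5 alone, the libraries with few hepatocyte transcripts and likewise an added alternative, it was also called lower in both (-1.02 and -1.14). Without healthy replicates 5 and 6, Nrp2 was called in neither (-0.15 and -0.22). The calls of both neuropilins thus depended on which healthy libraries were kept.

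Counting over the 9 members, 2 were higher and 3 lower in acute LSECs, where 35.5% of the 14317 genes tested were called higher and 37.9% lower. In fibrosis 3 were higher and 3 lower, against 35.3% and 34.9% of 14538 genes. In cirrhosis 1 was higher and 1 lower, against 27.1% and 24.7% of 14789 genes. Members without overlap with healthy LSECs numbered 5, 6 and 2, against 60.0%, 58.7% and 27.2% of all genes. With only 9 members these shares are coarse, and the members were not tested against all genes. The median log2 fold change of the members was -0.14, 0.12 and 0.15, against -0.09, -0.03 and 0.07 over all genes. These comparisons share the 6 healthy libraries. In cirrhosis the count of members called rose to 5 without healthy replicate 1 and to 4 without healthy replicate 6.

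**Figure D3:**
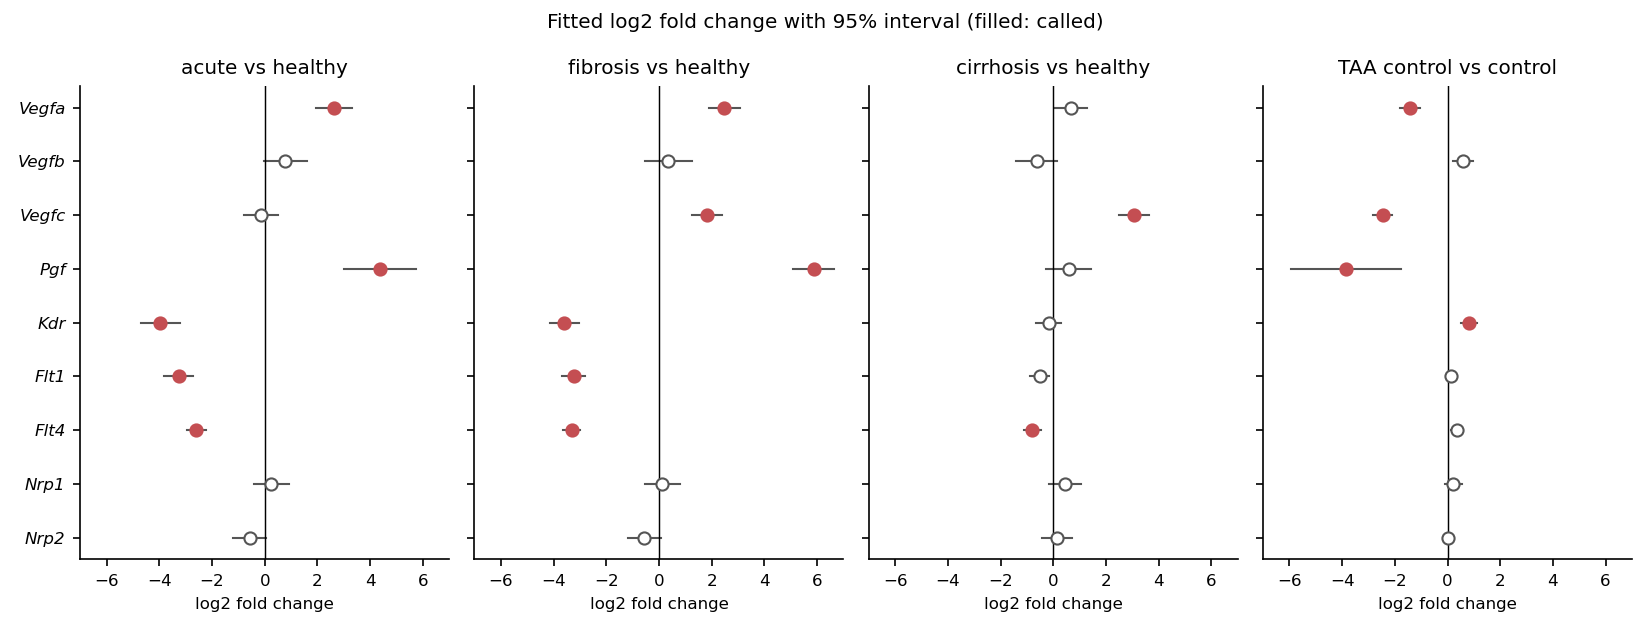
Log2 fold change of each member with its 95% interval from limma-voom in acute injury, fibrosis and cirrhosis against healthy LSECs and in the TAA experiment, with filled symbols for genes called. Kdr, Flt1 and Flt4 lie between -3.96 and -2.59 in acute injury and fibrosis, opposite to Vegfa and Pgf, and Vegfc is the largest difference in cirrhosis.

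The stages were also compared with each other. Between 2 and 6 weeks of CCl4, Vegfc was 4.04-fold higher in fibrosis than in acute injury (log2 fold change 2.02, SE 0.205, adjusted p = 0.00161) and Flt4 was 1.59-fold lower (-0.67, SE 0.131, adjusted p = 0.00878), both without overlap. Pgf was 2.96-fold higher (1.57, SE 0.39, adjusted p = 0.0201), although acute replicate 8 overlapped with the fibrotic libraries. That call was lost with edgeR (1.22), with DESeq2 (1.20) and without acute replicate 2 (1.49). The log2 differences of the other 6 members lay between -0.38 for Vegfb and 0.42 for Kdr, with adjusted p from 0.322 to 0.815. The 2 members higher and 1 lower compare with 10.2% of 13931 genes higher and 0.732% lower, and the 2 without overlap with 17.2%.

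From fibrosis to cirrhosis the receptors, Vegfc and Nrp2 rose while Pgf, Vegfa and Vegfb fell. Kdr was 11.1-fold higher in cirrhosis (log2 fold change 3.47, SE 0.138), Flt1 6.79-fold (2.76, SE 0.153), Flt4 5.94-fold (2.57, SE 0.125), Vegfc 2.42-fold (1.28, SE 0.195) and Nrp2 1.69-fold (0.75, SE 0.106). Pgf was 37.4-fold lower (-5.23, SE 0.138), Vegfa 3.36-fold lower (-1.75, SE 0.165) and Vegfb 1.92-fold lower (-0.94, SE 0.248). Their adjusted p ranged from 1.04e-10 for Pgf to 0.00407 for Vegfb by limma-voom. Nrp1 differed by 0.38 on the log2 scale (adjusted p = 0.016) and did not reach the fold-change threshold. Of the 15186 genes tested 34.3% were higher and 29.5% lower, and 63.3% did not overlap, as did 7 of the 9 members. In cirrhotic against acute LSECs 5 members were higher and 3 lower, where 37.5% and 31.8% of 15005 genes were called, and 8 members did not overlap, against 65.9% of genes. There the log2 fold change was 3.81 for Kdr, 2.78 for Flt1, 1.83 for Flt4, 3.22 for Vegfc, 0.74 for Nrp2, -3.74 for Pgf, -1.94 for Vegfa and -1.39 for Vegfb, with adjusted p up to 6.06e-05. Both comparisons share the cirrhotic libraries.

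Ratios of 2 members in the same library do not depend on the scaling between libraries. They were compared with exact permutation tests (two-sided), adjusted over 6 ratios and 7 comparisons, and 26 of the 42 differences passed, 11 of them upward. The log2 ratio of Flt1 to Kdr was -1.19 ± 0.31 in healthy LSECs (SD, n = 6) and rose to -0.50 ± 0.37 in acute injury (SD, n = 5), a difference of 0.69 (adjusted p = 0.0165, exact permutation test). In fibrosis it was -0.82 ± 0.10 (difference 0.36, adjusted p = 0.042, exact permutation test), and in cirrhosis -1.53 ± 0.09 (difference -0.34, adjusted p = 0.0545, exact permutation test). Thus the weakly signalling receptor fell less than Kdr at 2 and 6 weeks. The ratio of Flt4 to Kdr was 1.38 higher in acute injury (adjusted p = 0.0303) and 0.61 lower on the log2 scale in cirrhosis (difference -0.61, adjusted p = 0.042). Leaving out 1 library ended the call in 8 cases for Flt1 to Kdr in fibrosis, and in 7 and 9 cases for Flt4 to Kdr in acute injury and cirrhosis. Nrp1 rose against Nrp2 by 0.81 in acute injury (adjusted p = 0.0152) and 0.67 in fibrosis (adjusted p = 0.0165), both by exact permutation.

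Among the ligands, the log2 ratio of Vegfa to Vegfc was followed over the stages. It was 1.98 ± 1.02 in healthy (SD, n = 6), 4.76 ± 0.51 in acute (SD, n = 5), 2.64 ± 0.37 in fibrotic (SD, n = 5) and -0.39 ± 0.55 in cirrhotic LSECs (SD, n = 6). The difference from healthy LSECs was 2.78 in acute injury and -2.37 in cirrhosis (adjusted p = 0.0152 for both, exact permutation test), and 0.66 in fibrosis (adjusted p = 0.242). Between neighbouring stages it fell by 2.12 from acute injury to fibrosis (adjusted p = 0.0165) and by 3.03 from fibrosis to cirrhosis (adjusted p = 0.0152). Vegfa rose against Vegfb by 1.89 in acute injury and 2.13 in fibrosis (adjusted p = 0.0237 and 0.0165, exact permutation test). The ratio of Pgf to Vegfa was 3.35 higher in fibrosis than in healthy LSECs (adjusted p = 0.0152), 1.69 higher in acute injury (adjusted p = 0.0502) and differed by -0.13 in cirrhosis (adjusted p = 0.801). The smallest p these tests allow is 0.00216 for 6 against 6 libraries, 0.00433 for 5 against 6 and 0.00794 for 5 against 5.

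Because the endothelial markers fell as well, each member was set against the geometric mean of the 8 endothelial genes found. Differences are on the log2 scale, with exact permutation tests adjusted over the 63 differences, of which 50 passed and 27 of these were upward. In acute injury the receptors were still lower, by -2.31 for Kdr, -1.63 for Flt1 and -0.94 for Flt4, while Nrp1 was higher by 1.90, Nrp2 by 1.08, Vegfa by 4.26, Vegfb by 2.37, Vegfc by 1.53 and Pgf by 5.66. In fibrosis the values were -1.73, -1.36 and -1.43 for Kdr, Flt1 and Flt4, 1.98 and 1.31 for Nrp1 and Nrp2, and 4.31, 2.19, 3.56 and 7.36 for Vegfa, Vegfb, Vegfc and Pgf. All 18 had an adjusted p of 0.00758 and no overlap between the groups. In CPM, Nrp1, Nrp2 and Vegfb were called in neither comparison and Vegfc was not called in acute injury. Their rises here are thus relative to a reference that fell. Of its 8 genes, 6 were called lower in each comparison, and 1 was called higher in acute injury. In cirrhosis Vegfc was higher by 2.86 (adjusted p = 0.00758), Flt4 differed by -0.81 (adjusted p = 0.00758) and Flt1 by -0.54 (adjusted p = 0.0104, exact permutation test).

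The reference mattered for several members, among them the receptors and Vegfc. Without Cldn5 in it, the difference of Flt1 in cirrhosis was -0.23 and no longer passed. With LSEC markers in place of the endothelial genes, the difference in acute injury was -1.18 for Kdr, -0.49 for Flt1 and 0.20 for Flt4, and only that of Kdr passed. In fibrosis it was -0.66 for Kdr, which passed, and -0.29 for Flt1 and -0.37 for Flt4, which did not. From fibrosis to cirrhosis Vegfc was higher in CPM but lower relative to the endothelial genes (-0.70, adjusted p = 0.00758, exact permutation test). Without Cldn5 in the reference this difference was -0.38 and did not pass. In the TAA experiment LSEC markers as the reference moved Nrp1 from 0.72 to -0.22, Nrp2 from 0.52 to -0.42 and Vegfb from 1.06 to 0.12. Flt1 moved from 0.66 to -0.28 and Flt4 from 0.87 to -0.07. Of these, only the differences of Flt1 and Nrp2 still passed, both with the opposite sign. Without Cldn5 in the endothelial reference, the differences of Flt1 (0.14), Nrp1 (0.20) and Nrp2 (-0.00498) in the TAA experiment did not pass.

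In the TAA experiment the group labelled TAA control had less Vegfa, Vegfc and Pgf and more Kdr than the group labelled control. Vegfc was at 44.9, 44.8, 30.0, 33.6 and 33.7 CPM in the control libraries 1 to 5 and at 6.11, 7.37, 5.86, 6.75 and 7.53 CPM in the TAA control libraries 10, 12, 13, 14 and 15. The groups were far apart, a 5.52-fold difference (log2 fold change -2.46, SE 0.159, adjusted p = 4.68e-06). Vegfa was at 13.5, 18.3, 16.2, 17.9 and 23.5 CPM against 6.01, 6.24, 5.73, 7.90 and 7.77 CPM, without overlap (-1.42, SE 0.168, adjusted p = 0.000109). Pgf was at 1.55, 2.28, 1.74, 13.1 and 5.49 CPM against 0.17, 0.133, 0.23, 0.355 and 0.319 CPM, without overlap and with control libraries 4 and 5 on top (-3.84, SE 0.945, adjusted p = 0.00634). Kdr was at 3634, 3411, 3289, 2355 and 2858 CPM against 6708, 5119, 5842, 4955 and 4837 CPM (0.82, SE 0.137, adjusted p = 0.000687).

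Flt4 was also higher without overlap (750.3 to 865 CPM against 868 to 1191 CPM), but its 1.29-fold difference was under the fold-change threshold (log2 0.36, adjusted p = 0.0113). Vegfb differed by 0.58 (adjusted p = 0.0139) and likewise stayed just under the threshold. It was called in 11 of its 21 alternatives, including that without a fold-change threshold. Flt1, Nrp1 and Nrp2 differed by 0.15, 0.22 and 0.01, with 95% intervals of -0.06 to 0.36, -0.10 to 0.54 and -0.16 to 0.19. Of 14376 genes 12.7% were higher and 14.9% lower, where 1 and 3 of the 9 members were, and 35.4% did not overlap, where 5 members did not. In the same libraries lymphatic markers summed to 909 to 3397 CPM in the control group and 124 to 294 CPM in the TAA control group, stellate and fibroblast markers to 1701 to 4678 CPM and 205 to 306 CPM, and immediate-early genes to 10070.2 to 20540 CPM and 35010 to 52689 CPM. Their part in these differences was not tested. TAA control replicates 14 and 15 were the most alike of all library pairs within a group (chi-square per degree of freedom 3.05, against at least 25.2) and whether they come from separate animals is not settled by the data. They were counted as labelled, and with their mean as 1 replicate the 4 calls stayed and Vegfb was called too (0.60).

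The related ligand VEGF-D, encoded by Vegfd, acts on Flt4 like VEGF-C. It was higher in acute injury (log2 fold change 1.25, adjusted p = 0.027), fibrosis (1.86, adjusted p = 0.000287) and cirrhosis (2.90, adjusted p = 0.000193) by limma-voom, from a low level of 0.339 ± 0.164 CPM in healthy LSECs (SD, n = 6) to 2.69 ± 1.16 CPM in cirrhosis (SD, n = 6). In the TAA experiment Vegfd differed by -2.78 (adjusted p = 0.00049).

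Genes that relay the signal from the receptors changed in both directions, as genes did in general. Of 32 tested, 11 were higher and 13 lower in acute injury, where 35.5% and 37.9% of all genes were. In fibrosis 11 and 14 were, against 35.3% and 34.9% of all genes, and in cirrhosis 10 and 10, against 27.1% and 24.7%. Their values had median log2 fold changes of -0.32, -0.21 and 0.29. Pik3ca, a catalytic subunit of PI3-kinase, had the largest rise in acute injury (2.99, adjusted p = 3.33e-06) and in fibrosis (3.02, adjusted p = 2.55e-06). The largest fall was in Sh2d2a, an adaptor that binds Kdr, in acute injury (-5.72, adjusted p = 0.00186) and cirrhosis (-1.89, adjusted p = 0.0469), with a healthy level of 39.4 ± 48.9 CPM that varied widely (SD, n = 6). Its highest healthy libraries were replicates 1 and 2, which also had the highest sums of lymphocyte markers (242 and 166 CPM, against 18.7 to 64.9 CPM in the other 4), and in acute injury these markers summed to 2.92 to 8.85 CPM. The part of lymphocyte transcripts in the fall of Sh2d2a was not tested. Nos3, the endothelial nitric oxide synthase, fell most in fibrosis (-4.99, adjusted p = 7.14e-09), and was also lower in acute injury (-4.93) and cirrhosis (-1.32). In the TAA experiment 2 of the 32 were higher and 3 lower, against 12.7% and 14.9% of all genes.

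Of the endothelial genes known to be induced by VEGF, 3 of 11 tested were higher and 6 lower in both acute injury and fibrosis, 1 and 3 in cirrhosis, and 3 and 3 of 12 in the TAA experiment. Of all genes 35.5% were higher and 37.9% lower in acute injury, 35.3% and 34.9% in fibrosis, 27.1% and 24.7% in cirrhosis, and 12.7% and 14.9% in the TAA experiment. Their median log2 fold change was -2.30, -1.81 and -0.30 in the CCl4 stages. Esm1, a secreted proteoglycan of endothelial tip cells, rose most in acute injury (4.16, adjusted p = 0.000173) and fibrosis (3.63, adjusted p = 0.00053), and Angpt2, which destabilizes vessels, in cirrhosis (1.46, adjusted p = 0.000461). Nr4a1, a nuclear receptor, fell most in acute injury (-6.44, adjusted p = 3.27e-07). Nr4a1 and Egr3 of this list are also immediate-early genes, all 8 listed markers of which were lower in acute injury and in fibrosis. Dll4, the Notch ligand of tip cells, fell most in fibrosis (-6.19, adjusted p = 1.26e-09) and cirrhosis (-1.65, adjusted p = 5.79e-05).

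Of the oxygen sensing genes upstream of Vegfa, 3 of 8 tested were higher and 2 lower in acute injury, 2 and 2 in fibrosis, 2 and 3 in cirrhosis, and 0 and 2 in the TAA experiment. The corresponding shares of all genes were 35.5% and 37.9%, 35.3% and 34.9%, 27.1% and 24.7%, and 12.7% and 14.9%. The median log2 fold changes of the list were 0.35, 0.34, -0.43 and -0.21. Hif1a, the oxygen-regulated subunit of the hypoxia-inducible factor, had the largest rise in acute injury (3.23, adjusted p = 1.42e-06) and fibrosis (3.13, adjusted p = 1.87e-06), from 79.7 ± 34.7 CPM in healthy (SD, n = 6) to 671 ± 95.8 CPM in acute LSECs (SD, n = 5). Its relative Epas1 had the largest fall in both (-1.45 and -1.28, adjusted p = 4.6e-05 and 1.67e-05). In cirrhosis Egln3, a prolyl hydroxylase that marks these factors for degradation, rose by 2.33 (adjusted p = 0.00185) and Egln2, of the same family, differed by -1.23 (adjusted p = 0.000432).

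Of the semaphorins and plexins, which share the neuropilins, 4 were higher and 6 lower of 11 tested in acute injury, 6 and 6 of 12 in fibrosis, 5 and 2 of 12 in cirrhosis, and 0 and 6 of 12 in the TAA experiment. For these and for the extracellular modulators, the shares of all genes called higher and lower were 35.5% and 37.9%, 35.3% and 34.9%, 27.1% and 24.7%, and 12.7% and 14.9%. The median log2 fold changes of the semaphorins and plexins were -1.86, 0.03, 0.49 and -0.79. Sema3c rose most in acute injury (3.05, adjusted p = 0.00105) and fibrosis (5.15, adjusted p = 4.78e-06), and Sema3a, the ligand of Nrp1, in cirrhosis (5.85, adjusted p = 5.63e-05), from 0.179 ± 0.147 CPM in healthy (SD, n = 6) to 10.4 ± 5.15 CPM (SD, n = 6). Sema3f, the ligand of Nrp2, fell most in acute injury (-5.19, adjusted p = 5.86e-07) and fibrosis (-4.28, adjusted p = 1.9e-06), and Plxnd1, a plexin of endothelial cells, in cirrhosis (-1.28, adjusted p = 9.53e-05). Extracellular modulators of VEGF counted 2 higher and 3 lower of 8 in acute injury, 3 and 3 in fibrosis, 3 and 0 in cirrhosis, and 1 and 3 of 7 in the TAA experiment, with medians of -0.30, 0.70, 0.32 and -0.56. Ctgf, a matrix protein that binds VEGF-A, rose most in acute injury (3.60, adjusted p = 1.17e-07) and fibrosis (3.58, adjusted p = 5.8e-08), and Adamts3, the protease that helps to activate VEGF-C, in cirrhosis (1.64, adjusted p = 0.00676). The largest falls were in Thbs2 in acute injury (-3.90, adjusted p = 1.82e-06) and in Sparc in fibrosis (-3.52, adjusted p = 1.45e-07), both matrix proteins.

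Members were also compared within the groups. After group means were subtracted from log2 CPM of the 22 CCl4 libraries, Pearson's r was 0.86 between Kdr and Flt1, 0.75 between Vegfb and Flt4 and 0.66 between Nrp1 and Nrp2, and the lowest among the members was -0.50 between Vegfb and Pgf. By the same measure over 8527 genes, Kdr was most like Mylk (0.94), Sdpr (0.92) and Col4a4 (0.91), and Flt1 most like Col4a4 (0.92), Ccdc80 (0.88) and Col13a1 (0.87). Flt4 was nearest to Ndfip1 (0.79), Srp9 (0.77) and Triobp (0.77). Among the ligands, Vegfa was most like Creg1 (0.85), Vegfb like Triobp (0.87), Vegfc like Col4a1 (0.79) and Pgf like Pim1 (0.79). The neuropilins were most like Rmi1 and Tdrd3 (both 0.93, Nrp1) and Asap1 (0.94, Nrp2). These values share libraries and the spread of the healthy group, and are a description.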

How the data were processed

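LSEC RNA was extracted with QIAzol, and the authors prepared stranded poly(A) libraries, aligned reads with STAR (genome Rnor_6.0) and used RSEM for quantification; FastQC, Trim Galore and limma are also named in the submitters' processing notes. The deposited values are RSEM expected counts per gene and library, not normalized and not pooled. RSEM divides reads that match several genes by its own estimate. Expected counts were rounded to whole numbers, filtered with filterByExpr and scaled with TMM. limma-voom was run on the 2 groups of a comparison without covariates, and a gene was called at a Benjamini-Hochberg adjusted p under 0.05 and a fold-change above 1.5. The study's methods name an unadjusted p; that threshold was run as an alternative. CPM values were computed per experiment. Ratios used a pseudocount of 0.5 counts and exact permutation tests (two-sided). Software was R 4.3.3, limma 3.58.1, edgeR 4.0.16, DESeq2 1.42.0, Python 3.11.15, scipy 1.17.1 and matplotlib 3.10.9. The tests were tested on simulated data.

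Groups and replicate numbers came from the labels. The members, gene lists and marker lists were chosen with earlier results of these data known. All 9 members were named in every comparison, and of each pathway list the genes with the largest rise and the largest fall among those called against healthy LSECs. Genes most like a member were the 3 with the highest correlation within groups and a mean log2 CPM of at least 3; of these, the text prints some or all. A few genes that these rules name are not reported here. Grb2 was left out because 2 table entries carry its symbol. Replicate numbers shared by healthy, acute and cirrhotic libraries were not treated as pairs. Correlations of deviations from group means between libraries of the same number ran from -0.24 to 0.29, which does not settle whether they are paired. Alternatives tried were edgeR, DESeq2, weights per library, 1 fit over the CCl4 groups, other filters and other scaling. Further ones were the unadjusted p, no fold-change threshold, the replicate block, 2 TAA libraries averaged and each library left out. Promoter windows came from RefSeq's GRCr8 tables, matched by symbol. Positions on Rnor_6.0 and protein sequences were not used here.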

Additional observations from a re-analysis of the deposited data

Results flagged for a closer look

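A single library stood apart from the rest of its group in 3 of 66 tests, where chance gives about 3.3. The tests covered the members' levels, library totals and TMM factors. Vegfc in healthy replicate 1 was the lowest of its group at 1.77 CPM, with the next library at 3.87 CPM. The total of control replicate 5 of the TAA experiment was the highest of its group at 32631606 counts, the next being 28485839. The total of acute replicate 4 was the highest of the acute group at 36916992 counts, the next being 32986854.

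Levels of members differed between the stages, as tested by limma-voom on the 2 stages themselves. These are differences between groups of libraries, in which stage and a batch that coincides with it cannot be told apart. From acute injury to fibrosis the log2 difference was 2.02 for Vegfc, 1.57 for Pgf and -0.67 for Flt4. From fibrosis to cirrhosis it was 3.47 for Kdr, 2.76 for Flt1, 2.57 for Flt4, 1.28 for Vegfc, 0.75 for Nrp2, -0.94 for Vegfb, -1.75 for Vegfa and -5.23 for Pgf.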

How the results depend on the processing

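The 36 calls of members had 828 values under the alternatives, of which 824 kept their direction and call, 0 changed direction and 4 lost the call, namely Flt4 in cirrhosis with library size only (-0.45) and Pgf between fibrosis and acute injury with edgeR (1.22), DESeq2 (1.20) and without acute replicate 2 (1.49). With the unadjusted p or without a fold-change threshold a call could not be lost, because these only loosen the rule on the same fit. Of 630 values for the 27 differences not called, 58 became calls and 24 changed sign. The number of members called in cirrhosis, 2, ranged from 2 to 5 over the libraries left out and was 5 with healthy replicates 3 and 5 alone. Between fibrosis and acute injury it was 5 with weights per library, against 3. Calls were gained most often for Vegfb in the TAA experiment (11 alternatives) and acute injury (8), Vegfa in cirrhosis (10) and Nrp2 in acute injury and fibrosis (5 each). With the replicate block, whose numbers are not known to pair the libraries, members called were 6, 3 and 8 in acute and cirrhotic against healthy and cirrhotic against acute LSECs, and all genes called 10945, 7335 and 10148, against 10502, 7660 and 10399. Differences that changed sign, none of them called in the report, were Vegfc in acute injury (0.286 with library size only, 0.0925 without healthy replicates 5 and 6), Vegfb in fibrosis (-0.409, healthy replicates 3 and 5 alone), Nrp1 in fibrosis (-0.0308 with edgeR, -0.122 with healthy replicates 3 and 5 alone), Kdr in cirrhosis (0.0928 with weights, 0.169 with library size only, 0.143 without healthy replicates 5 and 6), Nrp2 in cirrhosis (-0.441, healthy replicates 3 and 5 alone), Nrp2 between fibrosis and acute injury (-0.0209 in 1 fit, -0.00313 with library size only) and Nrp2 in the TAA experiment (-0.000129 with DESeq2, -0.00363 with weights, -0.00271 with RLE, -0.0207 with library size only). With each library left out, values ran from -0.285 to 0.0523 for Vegfc in acute injury, -0.0446 to 0.273 for Nrp1 in fibrosis, -0.0635 to 0.266 for Nrp2 in cirrhosis and -0.0381 to 0.0452 in the TAA experiment, and, between fibrosis and acute injury, -0.269 to 0.00374 for Vegfa and -0.101 to 0.272 for Flt1. The log2 ratio ran from -0.491 to 0.116 for Pgf to Vegfa in cirrhosis and from -0.0236 to 0.494 for Vegfa to Vegfb between fibrosis and acute injury. Relative to endothelial genes, it ran from -0.152 to 0.205 for Vegfa and -0.00922 to 0.168 for Nrp1 between fibrosis and acute injury, and -0.00724 to 0.26 for Nrp2 in cirrhosis. With LSEC markers as the reference, 40 of 63 relative differences passed, against 50, and signs changed for Flt4 in acute injury (0.196), Vegfa between fibrosis and acute injury (-0.0122), Flt1 and Flt4 between cirrhosis and fibrosis (-0.085, -0.281), Flt4 between cirrhosis and acute injury (-0.842) and Flt1, Flt4, Nrp1 and Nrp2 in the TAA experiment (-0.282, -0.0699, -0.218, -0.422). Without Cldn5 in the reference they changed for Kdr in cirrhosis (0.118) and Nrp2 in the TAA experiment (-0.00498). Alternatives that leave out Cldn5 or a pair of healthy libraries, or use 2 of them alone, were chosen after seeing the data. The causes were not tested. Depth limits Pgf, at 4 to 9 counts in the TAA control group.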
